A study of Homo sapiens with 6 samples.

Results

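Immediate early transcription factor genes were examined in Caco-2 cells after hypoxia followed by reoxygenation (H/R) and under control conditions. The genes were found in the deposited table by name, from 10 names: FOSL1, FOSB, FOS, FOSL2, JUNB, JUN, EGR1, NR4A1, MYC and IER3. A row of exactly that name was found for 8 of them among the 2257 rows, and these 8 are FOSL1, FOSB, FOS, JUNB, JUN, EGR1, NR4A1 and MYC. FOSL2 was not analysed here. IER3 stood only as numbered copies of the symbol and is described apart from the 8 genes.

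Caco-2 is an established human cell line derived from a colorectal tumour, used as a cell model of the intestinal epithelium. The cells are labelled wild type in both groups, with 3 samples given H/R and 3 control samples. The hypoxia and reoxygenation times of the sequenced samples are not in their labels. The study's methods mention a control siRNA or one against TMEM2 for H/R Caco-2 cells in RNA-seq, while the labels of these 6 samples name no siRNA, so whether they were transfected is unclear. Nothing in the labels says that samples of a group were separate cultures, so the spread between them may be technical. RNA was selected by its poly(A) tail and sequenced as paired ends, and levels are in FPKM, that is, fragments scaled to transcript length and to all mapped fragments of the sample. Group values are mean ± SD with n = 3 per group. A change is the mean of log2(FPKM + 1) after H/R less that in control, given with the SE and the adjusted p-value of limma, a linear model fitted across all rows.

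Immediate early genes are transcribed within minutes of a signal, from factors already in the cell, without new protein synthesis. Growth factors, stress and oxygen change reach them through MAP kinases, serum response factor and the cAMP response element binding protein. Their mRNAs are short-lived, and most encode transcription factors that switch on a later set of genes. FOS and JUN proteins pair through leucine zippers into the dimer AP-1, EGR1 is a zinc finger factor, NR4A1 an orphan nuclear receptor, and MYC a factor that drives ribosome production and growth.

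Sequence before the start sites is shown for FOS, FOSB, JUNB and EGR1, because their windows hold more than one kind of element known from the immediate early response. The windows are from RefSeq on GRCh38.p14 and run from 250 bases before to 50 bases after the start, 5′ to 3′ on the gene's strand. They lie on the plus strand at chr14:75278578-75278877 (FOS), chr19:45467746-45468045 (FOSB), chr19:12791236-12791535 (JUNB) and chr5:138465229-138465528 (EGR1). Capitals mark the CArG box, which serum response factor binds, the core TGACG of the cAMP response element, and the TATA motif TATAAA, on either strand.
FOS: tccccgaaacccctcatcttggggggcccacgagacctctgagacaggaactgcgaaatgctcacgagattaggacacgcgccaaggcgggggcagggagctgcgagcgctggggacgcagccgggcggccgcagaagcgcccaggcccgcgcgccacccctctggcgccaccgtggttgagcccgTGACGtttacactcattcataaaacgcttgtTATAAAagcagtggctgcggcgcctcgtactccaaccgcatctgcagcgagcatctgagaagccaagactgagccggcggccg
FOSB: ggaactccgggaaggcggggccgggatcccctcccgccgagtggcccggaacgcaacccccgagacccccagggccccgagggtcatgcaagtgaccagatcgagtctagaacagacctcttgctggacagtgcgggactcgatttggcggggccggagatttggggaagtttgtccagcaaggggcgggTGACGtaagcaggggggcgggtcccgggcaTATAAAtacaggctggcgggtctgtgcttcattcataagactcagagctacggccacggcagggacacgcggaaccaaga
JUNB: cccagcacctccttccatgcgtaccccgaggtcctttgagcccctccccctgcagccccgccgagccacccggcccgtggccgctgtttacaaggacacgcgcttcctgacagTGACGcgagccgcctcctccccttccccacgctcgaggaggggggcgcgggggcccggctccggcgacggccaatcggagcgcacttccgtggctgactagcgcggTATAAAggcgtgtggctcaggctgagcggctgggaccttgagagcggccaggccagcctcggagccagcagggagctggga
EGR1: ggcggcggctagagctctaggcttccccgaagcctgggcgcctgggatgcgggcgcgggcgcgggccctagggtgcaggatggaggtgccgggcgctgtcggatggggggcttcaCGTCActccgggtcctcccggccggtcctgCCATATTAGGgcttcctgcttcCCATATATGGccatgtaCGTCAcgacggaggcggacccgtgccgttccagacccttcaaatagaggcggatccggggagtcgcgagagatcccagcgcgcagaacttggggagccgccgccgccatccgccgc

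RefSeq windows were found for 6 of the 8 genes (7 windows, since NR4A1 has a further start), and FOSL1 and MYC had none. The core TGACG was found in 5 of the 7 windows, those of FOS, FOSB, JUNB, JUN and EGR1, against 24.6% of 35116 RefSeq windows of the same length. That share is not matched for base content: TGACG holds a CpG, and these 5 windows have 16 to 33 CpG and 62% to 71% GC, against medians of 14 CpG and 58.7% GC over all windows. TATAAA was in the windows of FOS, FOSB and JUNB, against 11.5% of all windows, and ended 28, 25 and 26 bases before the start. In FOS and FOSB the TGACG core began 64 and 60 bases before the start. The CArG box was in 1 window, that of EGR1, which holds it at 105 and at 83 bases before the start, against 1.29% of all windows. Neither NR4A1 window had any of these 3 motifs. The AP-1 motif TGANTCA (7.71% of all windows), the MYC motif CACGTG (7.26%) and the ETS motif CCGGAAG (10.3%) were in none of the 7. The core of the hypoxia response element, ACGTG (21.4%), was found in EGR1 alone, where it overlaps a TGACG match on the same strand. A match describes letters in this window and not a bound site, and CArG boxes farther from the start lie outside it.

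**Figure D1:**
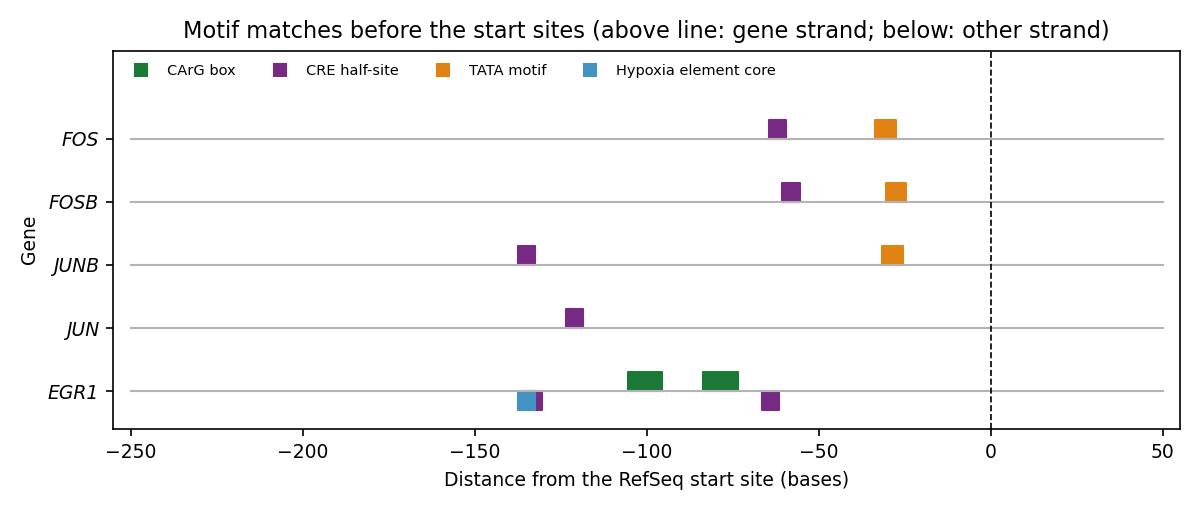
Motif matches in the windows of 5 genes by distance from the RefSeq start site in bases, with matches on the gene's strand drawn above each line and those on the other strand below it. FOS, FOSB and JUNB have a TGACG core and a TATA motif, JUN a TGACG core, and EGR1 a pair of CArG boxes between 105 and 74 bases before the start.

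To ask how the genes stood after H/R, each was compared between the groups. All 8 rose (limma adjusted p under 0.05), against 46.1% of the 2034 rows tested, while none of the 8 and 52.9% of rows fell. In all 8, the lowest H/R sample was above the highest control sample, against 42.6% of rows tested. The table holds mainly rows that differ between the groups, with 99.0% of rows called in one direction or the other, so the p-values are those of a selected table. The median change of the 8 genes was 2.15, against -0.80 over all rows tested and 1.19 over the rows that rose. Each of the 8 was above the median of the rows that rose. FOSL1 had a larger rise than all but 3 rows, while 229 rows rose more than EGR1. The ratio of mean FPKM ran from 3.15 in EGR1 to 21.4 in FOSL1.

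**Figure D2:**
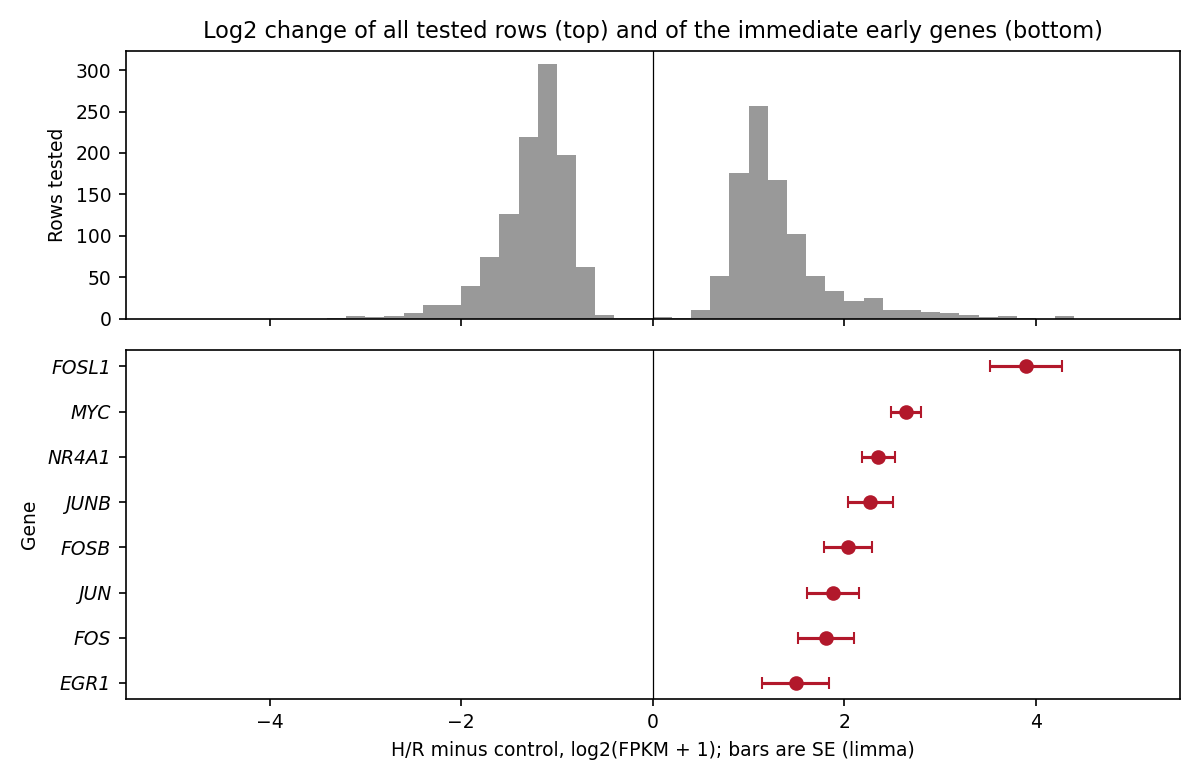
Log2 change (H/R minus control, log2(FPKM + 1)) of the 2034 rows tested as a histogram (top) and of the 8 genes with their SE (bottom). The rows fall into a group that rose and a group that fell with few near 0, and the 8 genes lie between 1.49 (EGR1) and 3.90 (FOSL1).

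FOSL1 encodes FRA-1, a FOS family protein without a strong activation domain of its own that is linked to epithelial migration. It had 32.7, 45.9 and 26.3 FPKM in H/R replicates 1, 2 and 3, against 3.49, 0.79 and 0.63 FPKM in control replicates 1, 2 and 3. Control replicate 1 was well above the other control samples, and all H/R samples were far above it. FOSL1 averaged 35.0 ± 9.99 FPKM after H/R and 1.64 ± 1.61 FPKM in control, a log2 change of 3.90 ± 0.38 (SE, limma adjusted p = 3.47e-05). The ratio of the means, 21.4, became 49.3 without control replicate 1. The pseudocount of 1 also holds the change down, and with 0.1 it was 4.69. The lowest H/R sample was 7.54 times the highest control sample.

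FOS encodes the founding FOS family subunit of AP-1. Its levels were 19.4, 46.5 and 29.5 FPKM in H/R replicates 1, 2 and 3, against 7.24, 9.19 and 7.15 FPKM in the control replicates. The H/R samples spread 2.41-fold between the lowest and the highest, and the control samples 1.29-fold. The log2 change was 1.81 ± 0.30 (SE, adjusted p = 3.44e-04), and the means were 31.8 ± 13.7 FPKM after H/R and 7.86 ± 1.15 FPKM in control.

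FOSB, a further FOS family subunit, had the lowest mean of the 8 genes in both groups, with a range that overlapped that of FOSL1 in control. It had 4.79, 9.57 and 6.16 FPKM in H/R replicates 1, 2 and 3, against 1.14, 0.63 and 0.82 FPKM in control. The groups did not overlap, and every H/R sample was several times the highest control sample. The change was 2.04 ± 0.25 on the log2 scale (SE, adjusted p = 1.02e-04), a value that the pseudocount of 1 holds down in a low gene, and it was 2.82 with a pseudocount of 0.1.

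The make-up of the FOS family rows differed between the groups. The summed level of FOSL1, FOSB and FOS was 73.6 ± 24.7 FPKM after H/R and 10.4 ± 1.65 FPKM in control. FOSL1 made up 57.6%, 45.0% and 42.5% of that sum in H/R replicates 1, 2 and 3, against 29.4%, 7.45% and 7.33% in control replicates 1, 2 and 3. FOS made up 42.4% ± 7.33 after H/R and 76.9% ± 13.9 in control. FOSB made up 9.25% ± 0.767 after H/R and 8.36% ± 2.10 in control. These shares leave out FOSL2 and describe mRNA per length, not protein.

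JUNB encodes a JUN family subunit that often restrains proliferation. It had 82.5, 129 and 71.1 FPKM in H/R replicates 1, 2 and 3, against 19.6, 18.5 and 16.4 FPKM in control. The control samples lay close together, and every H/R sample was at least 3.62 times the highest of them. The means were 94.4 ± 30.9 FPKM after H/R and 18.2 ± 1.64 FPKM in control, and the change 2.27 ± 0.23 (SE, adjusted p = 4.46e-05).

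JUN, which encodes the subunit that N-terminal JUN kinases activate, had 21.7, 46.9 and 33.8 FPKM in H/R replicates 1, 2 and 3, against 7.86, 7.35 and 9.18 FPKM in control. Its groups did not overlap. The change was 1.88 ± 0.27 (SE, adjusted p = 2.03e-04), with a 2.16-fold spread among the H/R samples. JUNB was 73.5% ± 5.70 of the sum of JUNB and JUN after H/R and 69.0% ± 4.27 in control, and these ranges overlapped. The sum of FOSL1, FOSB and FOS was also divided by the sum of JUNB and JUN, and other members of either family are not in these sums. The ratio was 0.546, 0.579 and 0.591 in H/R replicates 1, 2 and 3, against 0.432, 0.410 and 0.336 in the control replicates. The groups did not overlap. FOSL1 made up 48.3% ± 8.08 of the first sum after H/R and 14.7% ± 12.7 in control. The ratio therefore does not describe FOS and FOSB apart from FOSL1.

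EGR1, the zinc finger factor with the CArG boxes shown above, had the smallest change and the widest spread after H/R. Its levels were 58.0, 152 and 60.0 FPKM in H/R replicates 1, 2 and 3, against 34.4, 28.4 and 22.9 FPKM in the control replicates. Replicates 1 and 3 of H/R lay close together and replicate 2 was 2.63 times the lowest. The means were 90.1 ± 54.0 FPKM after H/R and 28.6 ± 5.75 FPKM in control (change 1.49 ± 0.34 SE, adjusted p = 0.00214). Without H/R replicate 2 the ratio of the means was 2.06, against 3.15 with it, and the change 1.04, and the call held.

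NR4A1, which encodes the nuclear receptor NUR77, was among the most even of the genes. It had 74.4, 83.3 and 71.9 FPKM in H/R replicates 1, 2 and 3, against 14.8, 14.5 and 13.2 FPKM in control. The coefficient of variation was 7.84% after H/R and 5.84% in control. The lowest H/R sample was 4.88 times the highest control sample, and the change was 2.35 ± 0.17 (SE, adjusted p = 1.05e-05).

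MYC, which in colorectal tumour cells is also driven by WNT signalling, was the highest of the 8 genes in both groups. It had 352, 376 and 325 FPKM in H/R replicates 1, 2 and 3, against 54.3, 53.4 and 57.9 FPKM in the control replicates. The spread within a group was 1.16-fold after H/R and 1.09-fold in control. The change was 2.65 ± 0.16 (SE, adjusted p = 4.78e-06), and the lowest H/R sample was 5.62 times the highest control sample.

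IER3, an immediate early gene whose product acts in survival signalling and is no transcription factor, stood in 5 numbered rows with identical values in all samples. Reads of such copies may have been divided among them, so its level is uncertain. The value of the row was 25.4, 32.4 and 17.9 FPKM in H/R replicates 1, 2 and 3, against 5.18, 4.59 and 4.65 FPKM in control. The change was 2.14 ± 0.24 (SE, adjusted p = 6.54e-05), within the range of the 8 genes.

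**Figure D3:**
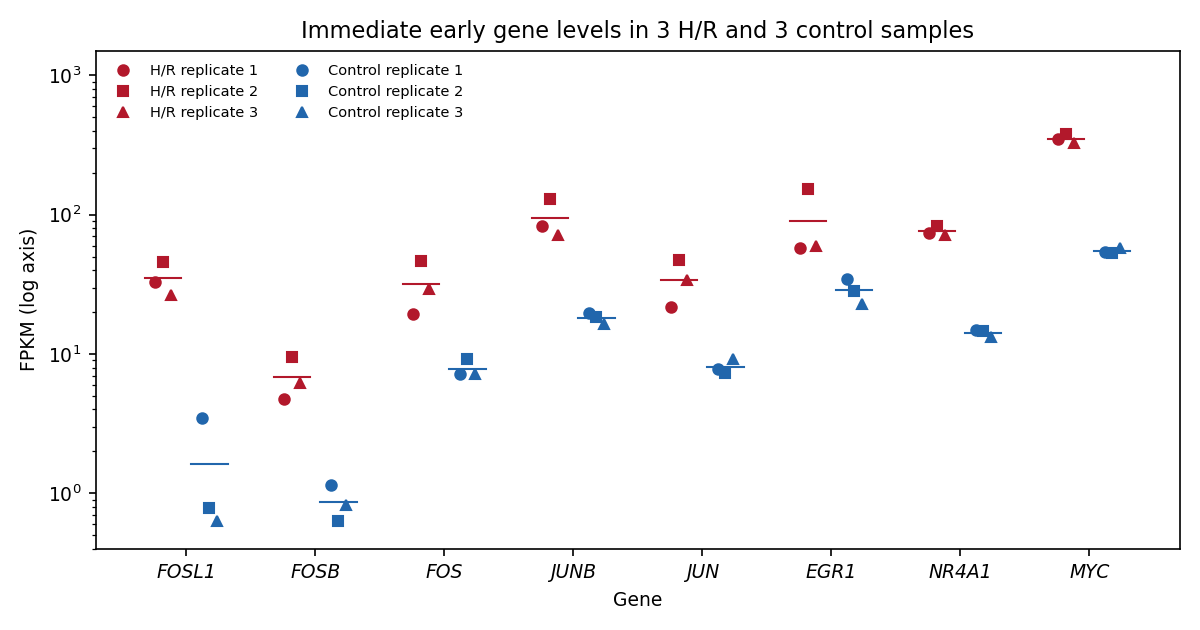
FPKM on a log axis for the 8 genes in each of 3 H/R samples (left of each pair) and 3 control samples, with marker shape for the replicate and a line at the group mean. In all 8 genes the H/R samples lie above the control samples, with MYC at 325 to 376 FPKM after H/R and FOSB at 4.79 to 9.57 FPKM.

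The order of the levels per length shifted around FOSL1. After H/R it ran MYC, JUNB, EGR1, NR4A1, FOSL1, JUN, FOS and FOSB. Sample ranges overlapped between neighbours from JUNB to NR4A1 and from FOSL1 to FOS, and did not overlap elsewhere in that order. In control the order was MYC, EGR1, JUNB, NR4A1, JUN, FOS, FOSL1 and FOSB, and only JUN with FOS and FOSL1 with FOSB had ranges that overlapped as neighbours. FOSL1 therefore stood with JUN and FOS after H/R and with FOSB in control. Since RNA was taken from bulk cultures, more RNA per cell and more cells expressing a gene cannot be told apart.

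The 3 genes around which the set was chosen, FOSL1, MYC and NR4A1, were compared with each other in all 3 pairs. The change of FOSL1 exceeded that of MYC by 1.25 and that of NR4A1 by 1.54 on the log2 scale, and the change of MYC exceeded that of NR4A1 by 0.29. Each pair gave p = 0.1 in an exact permutation test over the samples (two-sided, n = 3 per group, adjusted p = 0.1 over the 3 pairs), which is the smallest p this design can give. With a pseudocount of 0.1 the change of FOSL1 minus change of MYC was 2.02, and the change of FOSL1 minus change of NR4A1 2.26, each again with an exact p of 0.1. The within-sample difference of FOSL1 minus MYC was -3.39, -3.01 and -3.58 in the H/R samples, against -3.62, -4.92 and -5.18 in the control samples, so control replicate 1 lay close to the H/R samples.

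Within the H/R group the genes varied together. Replicate 2 had the highest level of the 3 H/R samples in all 8 genes, against 39.1% of rows tested and 34.3% of rows that rose. The deviation of H/R replicate 2 from its group mean had a median of 0.49 over the 8 genes and 0.07 over all rows tested. It was 0.90 in EGR1 and 0.62 in FOS, but 0.12 in NR4A1 and 0.10 in MYC. H/R replicate 1 was the lowest for FOS, JUN, FOSB and EGR1, with deviations of -0.60, -0.57, -0.39 and -0.48. Among control samples no replicate was highest throughout, as replicate 1 was highest in 5 genes, replicate 2 in 1 and replicate 3 in 2. All 8 genes rose without H/R replicate 2 as well.

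**Figure D4:**
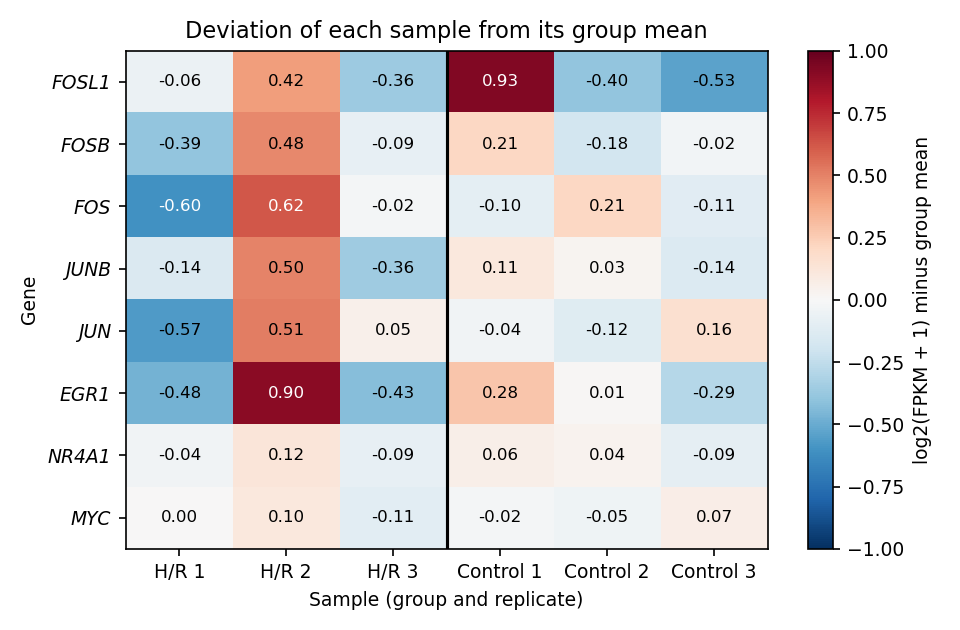
Deviation of each sample from its own group mean in log2(FPKM + 1), with the 8 genes as rows and the H/R and control samples as columns. H/R replicate 2 is positive in all 8 genes, from 0.10 in MYC to 0.90 in EGR1, and the largest control deviation is 0.93 for FOSL1 in replicate 1.

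The 6 libraries differed in how levels ran with GC content. In control replicate 1, levels were higher by 0.26 on the log2 scale per 10 points of GC relative to the control mean, and control replicate 3 had the opposite trend (-0.26). The H/R samples had trends of 0.16, -0.031 and -0.13 for replicates 1, 2 and 3. The transcripts of the 8 genes have a GC content of 55.4% to 64.9% (GENCODE 29 medians), against a median of 47.4% for rows that rose and 57.1% for rows that fell. The part of GC content in these changes was not tested. Of 14 markers of intestinal epithelium, 4 were in the table, and their summed level was 114 to 146 FPKM after H/R and 236 to 327 FPKM in control, most of it from FABP1. FABP1 and ALPI fell by 1.08 and 1.07 on the log2 scale. KRT20 and SI, both under the minimum for testing, differed in direction: KRT20 had 1.32, 1.68 and 1.61 FPKM in H/R replicates 1, 2 and 3, against 0.19, 0.35 and 0.43 FPKM in control, while SI had 0.43, 0.70 and 0.31 FPKM in the H/R replicates, against 0.98, 1.47 and 1.69 FPKM in control. The defining genes VIL1, EPCAM and CDH1 were not analysed here. Of the markers of other cells, 2 of 10 fibroblast genes (27.3 to 34.7 FPKM after H/R, 20.3 to 28.2 FPKM in control), 2 of 8 endothelial genes (21.7 to 25.9 FPKM after H/R, 31.5 to 36.5 FPKM in control) and 1 of 10 immune genes (4.91 to 5.96 FPKM after H/R, 10.4 to 15.7 FPKM in control) were in the table. In the fibroblast list PDGFRA rose and COL1A1 fell, and in the endothelial list ESAM rose and EGFL7 fell. The immune gene, CD14, fell, in a table where 46.1% of rows tested rose and 52.9% fell. The part of these other cells in the changes was not tested.

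By the root mean square distance of the centred log2 values over the 6 samples, the rows most like FOSL1 were ATF3, a stress-induced bZIP factor (distance 0.50), SLC2A1, a glucose transporter (0.50), and KRTAP3-1, a keratin-associated protein (0.57). Those most like MYC were PMEPA1, a TGF-beta target (0.14), CEACAM6, an epithelial adhesion protein (0.15), and PHLDA1, an ERK-induced gene (0.17). Those most like NR4A1 were SH2B3, a signalling adaptor (0.092), DDIT4, an inhibitor of mTORC1 (0.097), and PLEC, which encodes plectin (0.13). Among the 8 genes, NR4A1 and MYC were closest to each other (0.17), and FOSL1 and EGR1 farthest apart (1.27). With 2 groups of 3 samples, likeness mostly reflects a change of similar size.

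Other immediate early genes in the table rose as well. The table held 23 of 47 listed, 22 were tested, and all 22 rose, with a median change of 1.60, in a table where 46.1% of rows rose. The groups of CLK1, a splicing kinase, overlapped, and its call was lost in an ordinary linear model (adjusted p = 0.13). ATF3 averaged 46.9 ± 8.60 FPKM after H/R and 4.86 ± 1.82 FPKM in control. KLF4, a factor of epithelial differentiation, averaged 14.3 ± 0.812 FPKM after H/R and 2.45 ± 0.311 FPKM in control, and PPP1R15A, which helps to restore translation after stress, 194 ± 34.8 FPKM after H/R and 49.1 ± 6.44 FPKM in control. PHLDA1 rose by 2.41. In 19 of these 22 genes, too, H/R replicate 2 was the highest H/R sample, against 39.1% of rows tested and 34.3% of rows that rose. In lists described below, that held for 8 of 15 AP-1 targets, 8 of 15 ERK feedback genes and 1 of 5 MYC targets. The EGR1 relatives EGR2 and EGR4 were low. EGR2 averaged 1.71 ± 0.207 FPKM after H/R and 0.440 ± 0.020 FPKM in control, and EGR4 1.70 ± 0.639 FPKM after H/R and 0.337 ± 0.107 FPKM in control. NR4A2, under the minimum for testing, averaged 1.23 ± 0.390 FPKM after H/R and 0.417 ± 0.242 FPKM in control.

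The bZIP proteins that can pair with FOS or JUN went in both directions. Of 15 on the list, 6 were tested, of which 4 rose and 2 fell, against 46.1% and 52.9% of all rows. MAFF, a small MAF protein, rose by 2.45, and its relatives MAFG and MAFK rose by 1.61 and 1.13. BATF2, an interferon-induced factor, fell by 1.14, and MAF, a large MAF protein with an activation domain, fell by 1.15.

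Of 34 genes listed as AP-1 targets, 17 were in the table and 15 were tested, and all 15 rose (46.1% of all rows tested), with a median change of 1.73. AREG, an EGF receptor ligand, averaged 414 ± 83.8 FPKM after H/R and 87.0 ± 8.37 FPKM in control. PLAUR, the urokinase receptor, rose by 1.92. VEGFA, which hypoxia-inducible factor also drives, averaged 177 ± 17.5 FPKM after H/R and 61.4 ± 4.26 FPKM in control. The matrix proteases MMP7 and MMP10 were under the minimum. MMP7 averaged 1.39 ± 0.417 FPKM after H/R and 0.123 ± 0.214 FPKM in control.

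In the MYC network, MYCN went the other way from MYC. MYCN, the MYC relative of neural and embryonic cells, had 16.6, 20.9 and 18.1 FPKM in H/R replicates 1, 2 and 3, against 33.4, 37.7 and 35.2 FPKM in control. It fell by 0.90 ± 0.18 on the log2 scale (SE, adjusted p = 0.00101). The call was lost when each sample was scaled by median-of-ratios factors, where the adjusted p was 0.078. Such factors take most rows as unchanged, while 99% of rows tested here were called. The level of MYC was 19.1 ± 1.82 times that of MYCN after H/R and 1.56 ± 0.128 times in control. MXI1 and MXD1, which compete with MYC for its partner MAX, rose by 1.27 and 1.01. FBXW7, the ubiquitin ligase subunit that marks MYC for decay, rose by 0.88 (adjusted p = 0.013), but its lowest H/R sample only equalled its highest control sample. That call was lost in the ordinary linear model (adjusted p = 0.069) and without H/R replicate 3 (adjusted p = 0.051). Of 32 MYC targets listed, 5 were in the table and all 5 rose, against 46.1% of all rows: LDHA (lactate dehydrogenase, 2.09, which hypoxia-inducible factor also drives), CCND2 (a cyclin, 1.25), WDR43 and GNL3 (nucleolar proteins, 1.34 and 1.13) and TFRC (transferrin receptor, 1.31). The calls of GNL3 and TFRC were lost in the ordinary linear model (adjusted p = 0.051 and 0.064).

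Of 12 genes listed as EGR relatives, corepressors and targets, 4 were tested and rose, against 46.1% of all rows. They were EGR2 and EGR4 together with TGFB1, a growth factor (1.20), and F3, tissue factor (1.07), whose call was lost in the ordinary linear model (adjusted p = 0.067). From the list for NR4A1 partners and targets 1 gene of 12 was tested, CDKN1C, a cell cycle inhibitor. It fell by 1.48 on the log2 scale, in a table where 52.9% of rows tested fell. NR4A2, also on that list but under the minimum, was higher after H/R, as given above.

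Upstream of the immediate early genes, the regulators in the table were few. Of 18 genes for serum response factor, ETS and CREB factors, 4 were tested and all 4 rose, against 46.1% of all rows: FHL2, a coregulator of serum response factor and AP-1 (2.29), the ETS factors ETS2 and ETS1 (1.98 and 1.39), and CREB5 (1.87). Of 28 genes of the MAP kinase cascades, 4 were tested, of which 3 rose and 1 fell, against 46.1% and 52.9% of all rows. MAP2K1, the kinase of ERK, rose by 0.97, MAP3K8 by 1.23 and EGFR by 1.03. MAP2K6, a kinase of p38, fell by 0.76 (adjusted p = 0.029), a call lost under several alternatives (adjusted p up to 0.22).

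Of 22 genes listed for ERK feedback, 15 were tested, and all 15 rose, against 46.1% of all rows. DUSP6, DUSP5, DUSP4 and DUSP8, phosphatases of MAP kinases, had changes of 3.78, 3.23, 3.03 and 2.77. The decay of AU-rich mRNAs keeps FOS and MYC mRNAs short-lived. Of 16 genes listed for it, 3 were in the table and all 3 rose, against 46.1% of all rows. They were ZFP36, which encodes tristetraprolin (1.62), BTG1 (1.49) and TIAL1 (1.04). These lists were chosen with results of these data known and share genes with each other, so their counts add no independent support.

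**Figure D5:**
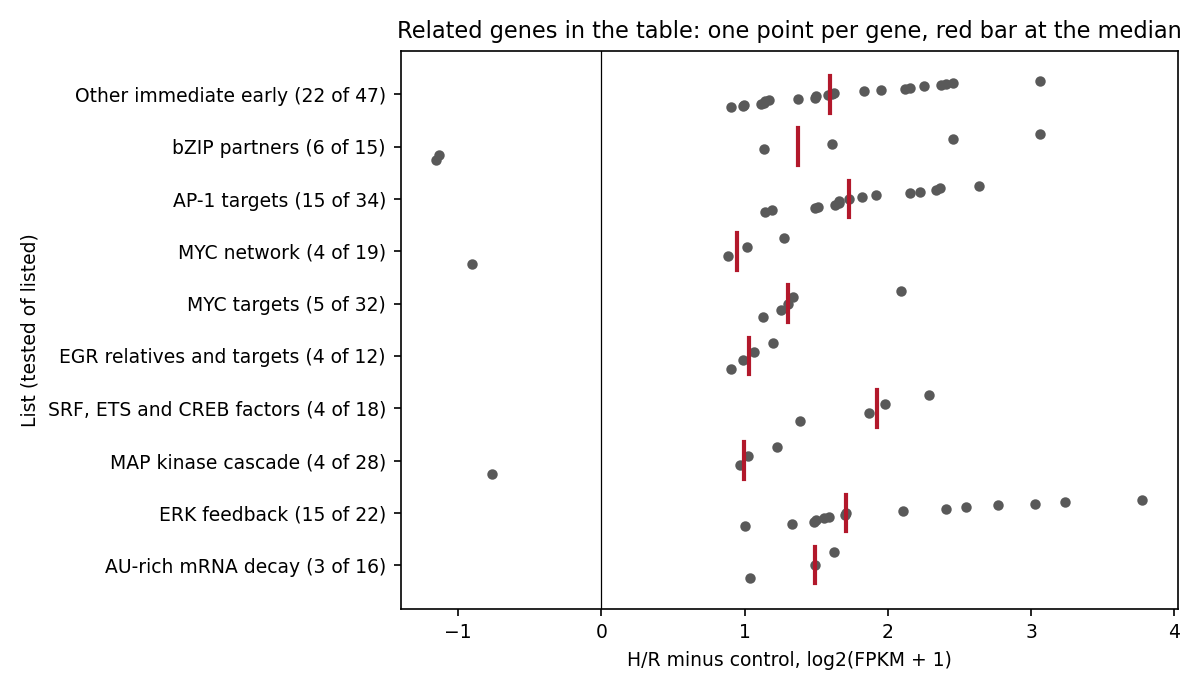
Log2 change (H/R minus control, log2(FPKM + 1)) of each tested gene in 10 related lists, with a red bar at the median and the number tested of those listed. All tested genes of the immediate early, AP-1 target, MYC target and ERK feedback lists lie above 0, while 2 bZIP partners, MYCN and MAP2K6 lie below it.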

How the data were processed

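Poly(A) RNA of 3 H/R and 3 control samples was sequenced. The authors deposited 1 table of log2 values, which are log2(FPKM + 1): once the logarithm was undone, 100% of values lay on steps of 0.01 FPKM (tolerance 1e-05 FPKM). The sources used here name no aligner, counter or annotation. In the submitters' processing notes the builds are GRCm38 and mm10, which are mouse, although the identifiers are human, so no position is given for a row. Depth is unknown, since rounding to 0.01 FPKM, also the smallest value above 0, hides single reads. No source used here gives the rule by which the rows of this table were selected.

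Identical copies of a symbol were counted once (51 rows removed), leaving 2206 rows, of which 2034 had a mean of at least 1 FPKM and were tested. All 8 genes passed this minimum. The test was limma 3.58.1 in R 4.3.3 (group only, mean-variance trend, two-sided, Benjamini-Hochberg over all rows, threshold 0.05). It was also run on simulated data in which most rows did not change, unlike here, so that run says little about its errors in this table. GC content and length are medians over protein-coding transcripts of GENCODE 29.

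The genes and lists were chosen with earlier results of these data known. Named genes are the 8 genes, up to 4 of each list by adjusted p plus members that went against the majority, and the 3 nearest rows to FOSL1, MYC and NR4A1; 1 gene that this rule names is not reported here. NR4A2, MMP7, MMP10, KRT20, SI, TFRC and CLK1 were named outside this rule, after their values were seen. The 16 alternatives changed the pseudocount (0.1 or 0.5), the minimum (none or 5 FPKM), the scaling (median-of-ratios, equal totals or quantile normalization), the model (no trend or an ordinary linear model), the replicate block, or left out 1 sample.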

Additional observations from a re-analysis of the deposited data

How the results depend on the processing

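All 8 genes kept their direction and their call under the 16 alternatives, except that FOSB was not tested with a minimum of 5 FPKM, where 7 genes were tested and rose. The highest adjusted p came from the ordinary linear model for each gene, 0.042 for EGR1 and 0.013 or less for the others. With the replicate block all 8 genes rose. The rows that rose after H/R were then 946, against 937 without it, and the rows that fell after H/R 1082, against 1076. Same-numbered samples deviated together for numbers 1 and 3 (r = 0.50 and 0.52 across rows) but hardly for number 2 (r = 0.072). H/R replicate 1 with control replicate 3, and H/R replicate 3 with control replicate 1, had r = -0.50 and -0.49. H/R replicate 2 correlated best with control replicate 3 (r = 0.11). The labels do not say whether same-numbered samples were handled together, and the source of the shared deviations was not tested. Median-of-ratios scaling and equal totals moved the median change of all rows, -0.80 as deposited, to -0.40 and -0.54, and raised the changes of the 8 genes. Under median-of-ratios scaling 948 rows rose and 846 fell. That scaling takes most rows as unchanged, while 99% of rows tested here were called, so its factors may hold part of the change. Besides the calls of MYCN and MAP2K6 given with their values, the ordinary linear model ended those of FBXW7 (adjusted p = 0.069), F3 (adjusted p = 0.067), GNL3 (0.051), TFRC (0.064) and CLK1 (0.13). No other tested gene of the lists lost its call under any alternative, and no direction turned. With 3 samples per group and a selected table, the calls show little about genes outside it.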
